A study of Homo sapiens with 4 samples.

Results

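The MYC network is a set of transcription factors that bind DNA as dimers with a shared partner, MAX. It was followed here through the first steps of blood formation from human embryonic stem cells. The network was taken as 9 genes: the activators MYC, MYCN and MYCL, the partner MAX, and the repressors MXD1, MXD3, MXD4, MXI1 (also called MXD2) and MNT. Each was found by matching the Entrez gene ID of the files to its symbol, and all 9 were found among 19390 gene IDs, of which 19273 matched a symbol. The cells were H1, an established human embryonic stem cell line labelled wild type. RNA came from undifferentiated H1 cells (day 0), from cells after 2 days in custom mTeSR1 medium with activin A at 40 ng/ml and BMP4 at 50 ng/ml (day 2), and from cells moved on to VEGF at 40 ng/ml and bFGF at 50 ng/ml for a further 1 or 2 days (days 3 and 4). All 4 libraries thus come from 1 line. Each day holds 1 bulk library. Differences between days thus go without a check by replicates and without p-values, and every interval covers counting error alone. Time in culture and the factors given changed together, so their parts cannot be told apart.

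MYC, MYCN and MYCL each pair with MAX, and the pair binds the E-box, a short palindrome in many promoters, and recruits histone acetyltransferases. The MXD proteins and MNT compete for the same partner and sites and recruit the SIN3 and histone deacetylase corepressor. In many tissues MYC or MYCN is high in cycling progenitors, and MXD proteins replace them as cells differentiate. In pluripotent stem cells MYC and MYCN are known for maintaining growth and self-renewal.

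The libraries held 5038110, 5197380, 5202870 and 5493310 expected counts at days 0, 2, 3 and 4, each to 6 significant digits. Levels are given as CPM, the usual depth-scaled count, on library totals scaled by TMM factors, and 1 count was worth 0.182 to 0.196 CPM. Cell type markers were compared with the day labels. The 6 pluripotent stem cell markers summed to 7871, 2936, 2328 and 1824 CPM at days 0, 2, 3 and 4. LIN28A alone held 1328 CPM of the day 4 sum. The 5 primitive streak markers summed to 5.82, 2778, 224 and 46.9 CPM, with 1 of them at 0 on day 0. CER1 alone held 2287 CPM of the day 2 sum. The 5 endothelial markers summed to 251, 393, 1013 and 1286 CPM. Most of each sum was KDR, at 209, 354, 868 and 942 CPM. ERG was lower at day 2 than at day 0, at 0.588 and 5.24 CPM, and stood at 53.4 CPM on day 4. The 4 endoderm markers summed to 4.65, 100.4, 126 and 172 CPM, with 1 at 0 on day 0. SOX17 held 90.4 CPM of the day 2 sum and 55.3 CPM of the day 4 sum. AFP was lower at day 2 than at day 0, at 1.37 and 4.27 CPM, and stood at 22.7 CPM on day 4. Of 5 blood markers 4 were analysed, and they summed to 20.6 to 28.2 CPM, most of it SPN, a leukocyte surface protein, at 17.3 to 20.4 CPM. The leukocyte gene PTPRC was lower at day 4 than at day 0, at 0.727 and 5.43 CPM. The megakaryocyte integrin ITGA2B was higher at day 4 than at day 0, at 5.63 and 1.94 CPM, and the erythroid factor GATA1 was too, with 10 counts at day 4 and 0 at day 0. In bulk RNA fewer cells of a type and less RNA per cell cannot be told apart, nor can several cell types and 1 type that expresses several sets of markers. The part of these marker differences in the results below was not tested.

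All 9 members passed the minimum of 1 CPM in every comparison. The rule of size calls a gene higher or lower when its log2(CPM + 1) is 1 or more apart between the libraries, a 2-fold difference on that scale. At day 2 against day 0, 1 member was higher (MXI1) and 1 was lower (MYCN). By the same rule 12.9% of 15379 genes were higher and 8.81% lower. At day 4 against day 0, 2 members were higher (MXI1 and MXD4) and 1 was lower (MYCN), where 16.1% of 15652 genes were higher and 11.9% lower. Between day 4 and day 2, 0 members were higher and 0 lower, where 8.18% of 15406 genes were higher and 7.6% lower. The members' counts were thus not far from those of genes at large. The results below concern which members differed, and by how much. Over single days of the VEGF and bFGF step 0 members were higher and 0 lower. At day 3 against day 2, 5.82% of 15286 genes were higher and 3.51% lower, and at day 4 against day 3, 2.96% of 15367 genes were higher and 4.25% lower. MXI1 also passed a stricter 4-fold rule at day 4 against day 0, as did 6.27% of genes in the upward direction.

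**Figure D1:**
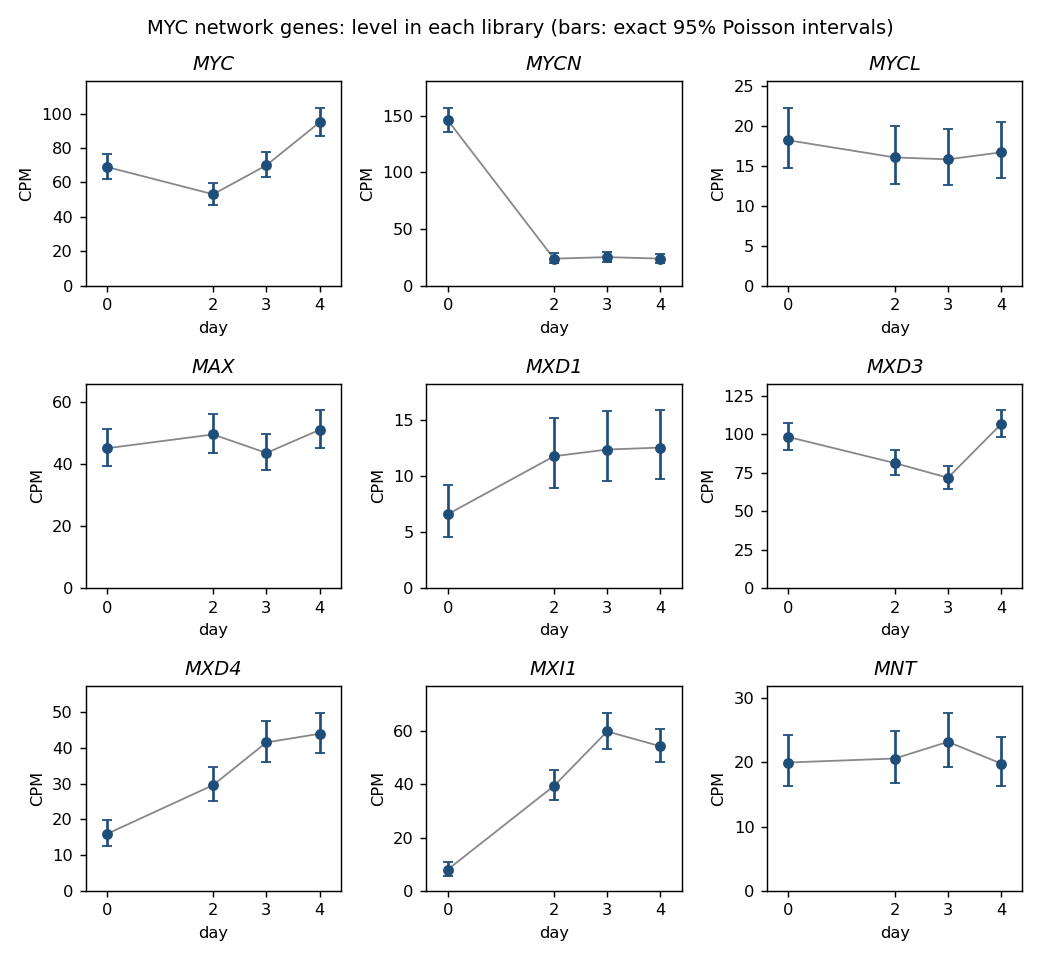
Level of each of the 9 genes in CPM (vertical axis, from 0) against day of differentiation (horizontal axis), 1 library per day; points are the levels and bars exact 95% Poisson intervals. MYCN stands at 146 CPM on day 0 and between 23.9 and 25.3 CPM after it, whereas MXI1 and MXD4 are lowest on day 0.

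Among the activators, the MYC paralogs went separate ways. MYCN (gene ID 4613), the paralog best known from neural and embryonic tissue, measured 146 CPM at day 0, 23.9 CPM at day 2, 25.3 CPM at day 3 and 24.0 CPM at day 4. Day 0 was high and the 3 later days lay together, with none of these 3 apart from the next in order by more than counting error. The level was 6.10-fold lower at day 2 than at day 0 (95% counting interval 5.03 to 7.45), and on the log2(CPM + 1) scale the difference was -2.56. Of all genes tested between these days, 0.949% were as far down. At day 4 MYCN was 6.09-fold lower than at day 0 (5.05 to 7.38). Between days 4 and 2 its ratio was 1.002 (0.778 to 1.29), so the difference lay between days 0 and 2. All 4 MYCN values were whole counts as deposited, with 122 at day 2 and 753 at day 0. The summed pluripotent stem cell markers were also lower at day 2 than at day 0, at 2936 and 7871 CPM, and their part in the MYCN difference was not tested. The gene has an antisense neighbour that overlaps its start, MYCNOS, which had 2, 0, 1 and 2 counts at days 0, 2, 3 and 4. The 0 at day 2 allows up to 0.588 CPM. Whether counting used strand is not stated, so reads of this pair cannot be told apart.

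The MYCN promoter is shown because this gene had the largest decrease of the network. The window runs from 250 bases before the start of the RefSeq gene to 50 bases from it, on GRCh38.p14, plus strand, chr2:15940300-15940599. The capitals mark the single match to TTTGGCGC, an E2F-type motif, searched on both strands. The match begins at position -176, with the start site counted as 1. Of 35116 RefSeq promoter windows of this length, 0.652% hold that exact spelling. Other spellings of E2F-type motifs were not searched, so the share says nothing of how common such motifs are. The window holds no match to the E-box CACGTG.
MYCN: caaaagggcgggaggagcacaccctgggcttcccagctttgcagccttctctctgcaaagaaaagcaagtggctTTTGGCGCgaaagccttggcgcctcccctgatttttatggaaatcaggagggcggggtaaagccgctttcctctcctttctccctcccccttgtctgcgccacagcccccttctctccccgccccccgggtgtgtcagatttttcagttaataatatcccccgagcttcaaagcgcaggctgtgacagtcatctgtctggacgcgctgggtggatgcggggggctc

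MYC (gene ID 4609), the broadly expressed paralog, measured 69.0 CPM at day 0, 53.2 CPM at day 2, 69.96 CPM at day 3 and 94.9 CPM at day 4. The lowest day was day 2 and the highest day 4, while days 0 and 3 did not differ beyond counting error. At day 2 its ratio to day 0 was 0.770 (0.655 to 0.904). At day 4 it was 1.78 times its level of day 2 (1.54 to 2.07), which is short of the 2-fold rule on the log2(CPM + 1) scale, at 0.82. It was higher after each single day of the VEGF and bFGF step. The ratios were 1.32 at day 3 against day 2 (1.12 to 1.55) and 1.36 at day 4 against day 3 (1.18 to 1.55). Against day 0 its ratio at day 4 was 1.37 (1.20 to 1.58). PVT1, a noncoding RNA gene next to MYC, shared this course only in part. It measured 12.0, 6.47, 8.50 and 5.998 CPM at days 0, 2, 3 and 4. Like MYC it was lower at day 2 than at day 0, with a ratio of 0.538 (0.342 to 0.834). The ratio of day 3 to day 2 was 1.31 (0.818 to 2.13), within counting error. At day 4, on 33 counts, PVT1 had 0.499 times its level of day 0 (0.317 to 0.773), whereas MYC was above its own.

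MYCL (gene ID 4610), the third paralog, measured 18.2 CPM at day 0, 16.1 CPM at day 2, 15.8 CPM at day 3 and 16.7 CPM at day 4. No day stood apart from its neighbour in order by more than counting error. With 82 to 94 counts a library, the interval for day 4 against day 0 ran from 0.681 to 1.24, and differences inside that range were not detectable at this depth.

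**Figure D2:**
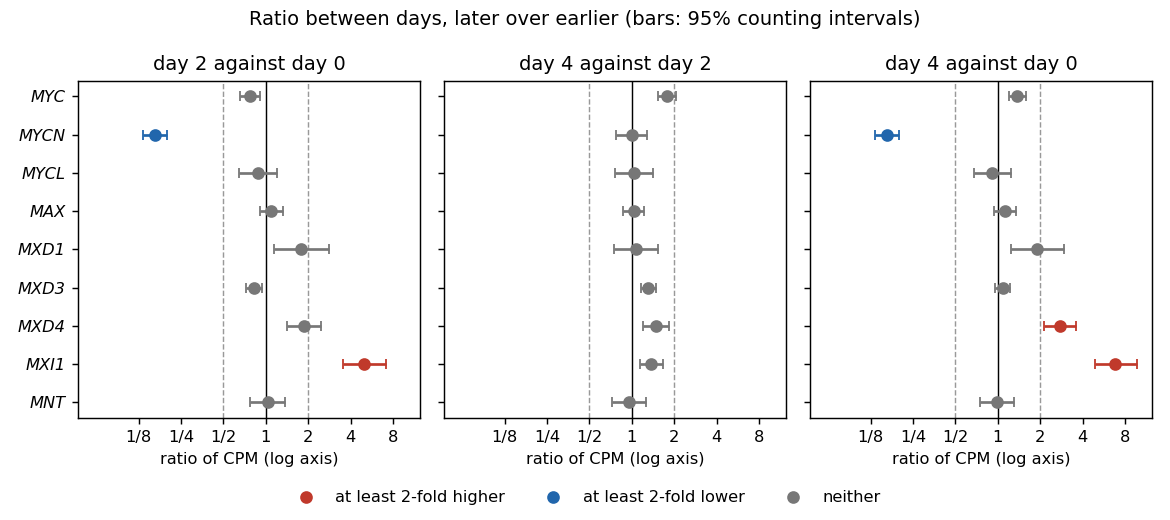
Ratio of CPM, later day over earlier day, for the 9 genes in 3 comparisons (log axis); bars are 95% counting intervals, dashed lines mark 2-fold, and colour shows the 2-fold rule on log2(CPM + 1). MYCN lies left of the dashed lines in both comparisons with day 0, MXI1 right of them, and all 9 genes lie between them at day 4 against day 2.

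Genes can be set against each other only per length, for which the deposited FPKM was used. MYCN had the highest FPKM of the 9 genes at day 0, at 57.16 FPKM, ahead of MXD3 at 37.7, MYC at 29.72 and MAX at 24.37 FPKM. At day 4 the order was MXD3 at 41.19, MYC at 39.96, MAX at 28.03, MXI1 at 15.9, MXD4 at 11.61 and then MYCN at 9.19 FPKM. The leading paralog therefore differed between the undifferentiated cells and all later days.

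Of the summed FPKM of MYC, MYCN and MYCL, MYCN made up 61.4% at day 0 (58.6 to 64.2), 24.9% at day 2 (21.1 to 28.8), 21.98% at day 3 (18.6 to 25.3) and 17.0% at day 4 (14.3 to 19.6). MYC made up 31.9, 60.9, 66.8 and 73.8% on the same days. The ratio of MYC to MYCN per length was 0.519 at day 0 (0.456 to 0.590), 2.44 at day 2 (1.963 to 3.05), 3.04 at day 3 (2.48 to 3.74) and 4.34 at day 4 (3.58 to 5.30). This ratio is taken within a library and does not depend on scaling between libraries. The intervals of day 0 and of every later day do not overlap.

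MAX (gene ID 4149), the obligate partner, measured 44.99 CPM at day 0, 49.4 CPM at day 2, 43.5 CPM at day 3 and 50.9 CPM at day 4. No neighbouring days in this order differed beyond counting error, and the ratio of day 4 to day 0 was 1.13 (0.947 to 1.35). Around this level of MAX the sums of its partners differed. The 3 activators summed to 93.11 FPKM at day 0, 36.06 at day 2, 43.85 at day 3 and 54.17 FPKM at day 4, and the 5 repressors to 49.82, 55.24, 62.61 and 74.96 FPKM. The activators were thus 1.87 times the repressors at day 0 and 0.653, 0.700 and 0.723 times at days 2, 3 and 4. Without MXD3, the most abundant repressor per length, the ratio was 7.68, 1.44, 1.24 and 1.60 at days 0, 2, 3 and 4, so it was highest at day 0 either way and lay below 1 only with MXD3 counted. These are sums of RNA per length in 1 library a day and say nothing of protein.

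**Figure D3:**
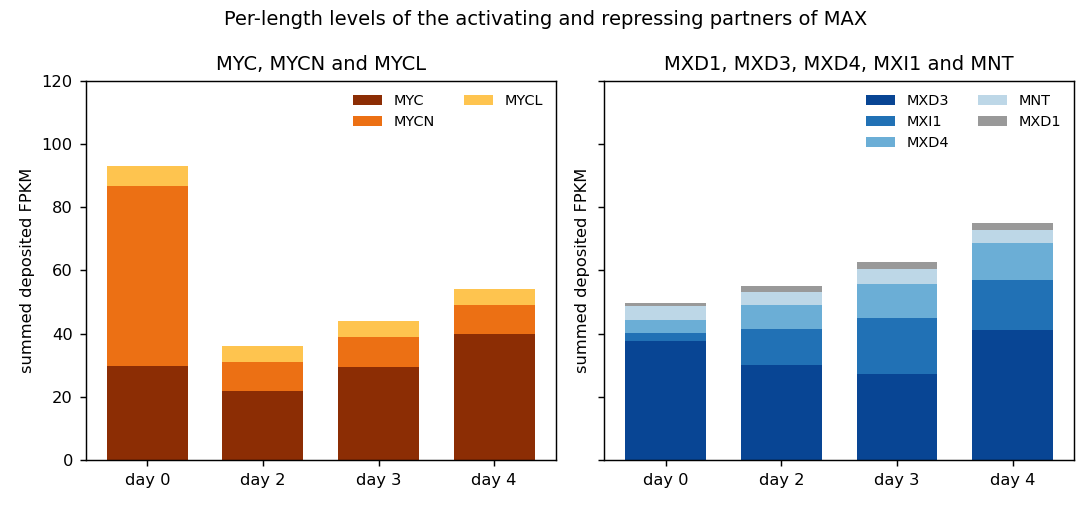
Deposited FPKM (vertical axis, from 0) of the 3 MYC paralogs (left) and of the 5 repressors (right), stacked by gene, in the day 0, 2, 3 and 4 libraries. The left stack is tallest at day 0, at 93.11 FPKM, mostly MYCN, and the right stack is tallest at day 4, at 74.96 FPKM.

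Among the repressors, MXI1 had the largest increase of the network. MXI1 (gene ID 4601), an antagonist of MYC, measured 7.95 CPM at day 0, 39.4 CPM at day 2, 59.9 CPM at day 3 and 54.3 CPM at day 4. Day 0 was lowest, day 2 lay between, and days 3 and 4 did not differ beyond counting error. It was 4.96-fold higher at day 2 than at day 0 (3.53 to 7.12), and 4.02% of genes tested were as far up. At day 4 it was 6.83-fold higher than at day 0 (4.92 to 9.72), with 3.88% of genes as far up. Across the VEGF and bFGF step its ratio was 1.38 at day 4 against day 2 (1.149 to 1.66). The day 0 level rests on 41 counts, and the later ones on 201 to 310.

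MXD4 (gene ID 10608), a repressor tied to exit from proliferation in mouse tissues, measured 15.9 CPM at day 0, 29.6 CPM at day 2, 41.6 CPM at day 3 and 44.0 CPM at day 4. Every day was at or above the one before, and only days 3 and 4 were within counting error of each other. It was 2.77-fold higher at day 4 than at day 0 (2.14 to 3.60), and 10.5% of genes tested were as far up. At day 2 against day 0 the ratio was 1.86 (1.41 to 2.47), short of the rule. At days 2 and 3 its expected count was not whole, at 150.78 and 214.53, so a part of its reads was assigned by the counting model.

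MXD1 (gene ID 4084), the first known antagonist of MYC, was the lowest member on every day per length, at 1.19 to 2.21 FPKM. It measured 6.59 CPM at day 0, 11.8 CPM at day 2, 12.4 CPM at day 3 and 12.5 CPM at day 4. Day 0 lay below the other days, which did not differ beyond counting error. The ratio of day 4 to day 0 was 1.90 (1.24 to 2.96) and did not reach the rule, at 0.83 on the log2(CPM + 1) scale, with 34 counts at day 0.

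MXD3 (gene ID 83463) is the one MXD gene that in mouse marks S phase of cycling progenitors. It measured 98.1 CPM at day 0, 81.2 CPM at day 2, 71.7 CPM at day 3 and 107 CPM at day 4. Days 0 and 4 were high and did not differ beyond counting error, and days 2 and 3 were low and did not either. The ratio of day 4 to day 3 was 1.49 (1.30 to 1.70). Of the summed FPKM of the repressors MXD3 made up 75.7% at day 0, 54.6% at day 2, 43.7% at day 3 and 54.9% at day 4. Without it the other 4 repressors summed to 12.12, 25.08, 35.25 and 33.77 FPKM.

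MNT (gene ID 4335), the repressor found in nearly all cell types, measured 20.0 CPM at day 0, 20.6 CPM at day 2, 23.2 CPM at day 3 and 19.8 CPM at day 4. No neighbouring days differed beyond counting error, and the ratio of day 4 to day 0 was 0.992 (0.751 to 1.31). Of the 5 repressors, then, MXI1, MXD4 and MXD1 were lowest at day 0 beyond counting error, while MXD3 and MNT were not.

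The promoters of MXI1, MXD4 and MNT are shown to set the largest increases beside a gene without one. The windows are RefSeq's on GRCh38.p14, each from 250 bases before a start to 50 bases from it, written along the gene. MXI1 lies on the plus strand and has 3 starts, chr10:110207355-110207654, chr10:110209981-110210280 and chr10:110225746-110226045. The deposited values sum over transcripts, so they do not tell which start was used. MXD4 is on the minus strand, chr4:2262060-2262359, and MNT on the minus strand, chr17:2401011-2401310. Capitals mark matches to the E-box CACGTG, which reads the same on both strands, or to TTTGGCGC. Each of MXD4 and MNT holds 1 E-box, at positions -238 and -193, and MXI1 holds neither of these exact spellings at any of its starts. An E-box is held by 7.26% of all 35116 windows. A match is a run of letters and shows no binding, and MXD4 and MNT, which both hold one, had different courses. Windows were kept for 8 of the 9 members, 11 in all, and none was kept for MYC.
MXI1 start 1: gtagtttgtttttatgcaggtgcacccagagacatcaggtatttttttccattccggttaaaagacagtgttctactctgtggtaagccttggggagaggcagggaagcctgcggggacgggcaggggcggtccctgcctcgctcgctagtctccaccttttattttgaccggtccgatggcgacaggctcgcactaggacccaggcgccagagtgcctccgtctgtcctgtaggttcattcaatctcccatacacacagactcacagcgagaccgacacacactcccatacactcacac
MXI1 start 2: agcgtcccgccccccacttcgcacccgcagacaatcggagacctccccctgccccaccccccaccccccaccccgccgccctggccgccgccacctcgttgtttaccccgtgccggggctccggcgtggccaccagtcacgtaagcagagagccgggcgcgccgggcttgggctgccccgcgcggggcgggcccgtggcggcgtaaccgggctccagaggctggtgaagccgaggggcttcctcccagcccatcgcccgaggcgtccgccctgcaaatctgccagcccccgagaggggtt
MXI1 start 3: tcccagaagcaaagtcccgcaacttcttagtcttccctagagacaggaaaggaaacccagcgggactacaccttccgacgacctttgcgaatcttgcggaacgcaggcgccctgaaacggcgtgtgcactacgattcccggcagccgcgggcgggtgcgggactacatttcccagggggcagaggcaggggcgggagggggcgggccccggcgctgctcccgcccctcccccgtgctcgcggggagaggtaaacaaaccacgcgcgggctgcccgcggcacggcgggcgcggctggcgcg
MXD4: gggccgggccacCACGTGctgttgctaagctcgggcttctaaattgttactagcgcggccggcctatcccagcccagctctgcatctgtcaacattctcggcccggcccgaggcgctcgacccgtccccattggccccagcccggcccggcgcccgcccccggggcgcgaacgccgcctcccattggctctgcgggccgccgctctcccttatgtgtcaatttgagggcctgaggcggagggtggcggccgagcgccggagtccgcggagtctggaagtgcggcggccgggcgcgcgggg
MNT: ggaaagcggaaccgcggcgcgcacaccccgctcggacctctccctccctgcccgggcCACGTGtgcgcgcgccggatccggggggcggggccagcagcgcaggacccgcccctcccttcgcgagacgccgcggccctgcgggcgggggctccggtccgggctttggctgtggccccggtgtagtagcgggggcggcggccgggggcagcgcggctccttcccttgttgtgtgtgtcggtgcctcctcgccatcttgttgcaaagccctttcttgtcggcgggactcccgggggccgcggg

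The genes around the network were described by lists. The lists were chosen with earlier results of these data known, so their shares are descriptions and not tests. Of 50 genes known as MYC targets, chiefly of ribosome production, nucleotide synthesis and growth, 0 were higher and 9 were lower at day 2 against day 0. That is 18% of the list lower, beside 8.81% of all genes. The median difference was -0.68 on the log2(CPM + 1) scale, beside 0.00 over all genes tested, and 43 of 50 lay below 0. TERT, the catalytic subunit of telomerase, stood at 1.962 CPM on day 2 and 17.1 CPM on day 0, 8.70-fold lower (4.51 to 18.8). POLR1B, a subunit of RNA polymerase I, stood at 38.8 CPM on day 2 and 109 CPM on day 0, 2.80-fold lower (2.37 to 3.30). HK2, a hexokinase at the entry of glycolysis, stood at 66.1 CPM on day 2 and 154 CPM on day 0. The others that were lower were NOP56, NOP16, RRP12, RCL1, MYBBP1A and PUS1, 2.07- to 2.34-fold.

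Between day 4 and day 2 the target list had a median of 0.15, with 35 of 50 above 0, but 0 genes were higher by the rule and 1 was lower, beside 8.18% of all genes higher and 7.6% lower. That gene was TFRC, the transferrin receptor, at 99.4 CPM on day 4 and 217 CPM on day 2. ODC1, the enzyme that starts polyamine synthesis and a classical MYC target, stood at 215 CPM on day 4 and 130 CPM on day 2, a ratio of 1.65 (1.501 to 1.82). Against day 0, the list stood at -0.51 on day 4, with 6 of 50 lower (12%, beside 11.9% of all genes) and 0 higher. The summed list was 15858, 11203, 9650 and 12451 CPM at days 0, 2, 3 and 4. Its lowest day was day 3, and MYC was lowest at day 2.

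The list of 15 S phase genes moved alongside. Its sum was 2842, 1845, 1696 and 2103 CPM at days 0, 2, 3 and 4, with medians of -0.68 at day 2 against day 0 and 0.16 at day 4 against day 2. At day 2 against day 0 it had 0 members higher and 3 lower, MCM2 and MCM5 of the replicative helicase and cyclin E1, CCNE1. The 3 are 20% of the list, beside 8.81% of all genes. Against day 0, day 4 had 1 of 15 higher and 1 lower, shares below the 16.1% and 11.9% of all genes, with a median of -0.64. The higher gene was TYMS, thymidylate synthase, at 171 CPM on day 4 and 84.6 CPM on day 0, and the lower one was CCNE1. Of the 15, 11 lay below 0 and 4 above. MXD3 was lowest at day 3 as well, though within counting error of day 2. Unlike the list it was back at its day 0 level on day 4, with a ratio of 1.09 (0.962 to 1.22). The part of cell cycle differences in the target list or in MXD3 was not tested.

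Genes listed here as held down by MYC were mostly higher at days 2 and 4 than at day 0. This list too was chosen with earlier results of these data known, so its shares may reflect that choice. Of 15, 11 reached 1 CPM at day 0, and at day 4 against day 0, 10 of these were higher and 0 lower, beside 11.5% of all genes of at least 1 CPM at day 0 that were higher. The eleventh was NDRG4, with 15.8 CPM at day 4 and 16.1 CPM at day 0. CDKN2B and KLF2 entered only through day 4, where a call was all but set by the minimum, and are left out of that count. CDKN2B stood at 16.2 CPM and KLF2 at 8.36 CPM on day 4, each with 3 counts on day 0. CDKN2C and CEBPA were under the minimum in both libraries. CDKN1C, an inhibitor of cyclin-dependent kinases, stood at 37.1 CPM on day 4 and 1.75 CPM on day 0, a ratio of 21.2 (10.97 to 47.1). NDRG1, a stress and differentiation gene named for its repression by MYCN, stood at 36.7 CPM on day 4 and 4.07 CPM on day 0, a ratio of 9.01 (5.74 to 14.9). At day 2 against day 0, 7 of the 11 were higher and 0 lower, beside 9.66% of all such genes higher, with KLF6, a zinc finger factor, at 153 CPM on day 2 and 27.0 CPM on day 0. Between day 4 and day 2, 4 of the 12 with at least 1 CPM at day 2 were higher and 0 lower, beside 5.61% of all such genes, and KLF2 again entered through day 4 alone. TXNIP, an inhibitor of glucose uptake and of thioredoxin, stood at 34.0 CPM on day 4, 2.75 CPM on day 2 and 5.62 CPM on day 0. The summed list was 149, 465, 580 and 624 CPM at days 0, 2, 3 and 4. On day 4 MYC was 1.37 times its day 0 level (1.20 to 1.58), while MYCN was 6.09-fold lower (5.05 to 7.38). The part of either gene in the differences of this list was not tested.

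**Figure D4:**
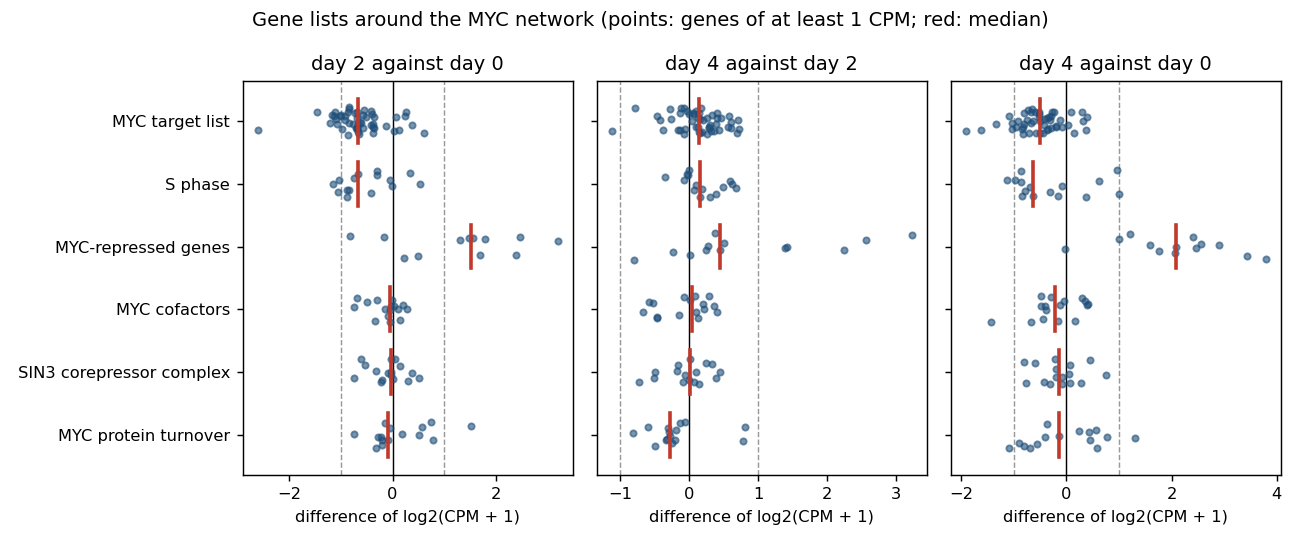
Difference of log2(CPM + 1), later minus earlier day (horizontal axis), for each gene of 6 lists with at least 1 CPM in either library, in 3 comparisons; red bars are list medians and dashed lines mark 2-fold. The MYC target and S phase lists have medians of -0.68 and -0.68 at day 2 against day 0, the MYC-repressed list 1.52, and the lists of cofactors and corepressors lie near 0.

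The protein partners of the network were read against the same shares of all genes, 12.9% higher and 8.81% lower at day 2 against day 0, 8.18% and 7.6% at day 4 against day 2, and 16.1% and 11.9% at day 4 against day 0. Of 16 MYC cofactors 0 passed the rule in either direction at day 2 against day 0 and at day 4 against day 2. Against day 0, 1 was lower at day 4, BPTF of the NURF remodelling complex, at 164 CPM on day 4 and 440 CPM on day 0. Of 16 genes of the SIN3 corepressor complex, through which MXD proteins act, 0 passed in any of the 3 comparisons, with medians of -0.04, 0.01 and -0.14 at day 2 against day 0, day 4 against day 2 and day 4 against day 0. The cofactor medians in the same order were -0.05, 0.05 and -0.22.

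Of 16 genes that set the stability of MYC proteins 15 passed the minimum, and no more than 1 of 15 was called in either direction in the 3 comparisons, where all genes had 7.6 to 16.1%. At day 4 against day 0, FBXL14, a ubiquitin ligase subunit, was higher, at 8.18 and 2.72 CPM on days 4 and 0. USP28, the deubiquitinase that opposes the ligase subunit FBXW7 on MYC, was lower, at 76.3 CPM on day 4 and 163 CPM on day 0, 2.14-fold (1.90 to 2.41). FBXL14 was the 1 member past the rule at day 2 against day 0, and at day 4 against day 2 there were 0, with a median of -0.27 and 13 of 15 below 0. In the extended network, MGA, a large MAX partner that represses germ line genes, was 2.23-fold lower at day 4 than at day 0 (1.99 to 2.50), at 83.1 and 185 CPM. MLX and MLXIP, which pair with each other in sensing sugars, did not pass in these 3 comparisons. MLXIPL did not either, but was higher at day 3 than at day 2, at 10.4 and 2.35 CPM, a ratio of 4.43 (2.34 to 9.11), and stood at 4.91 CPM on day 4.

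Genes of like course were sought among 11565 genes of at least 10 CPM on any day, by the distance between profiles of log2(CPM + 1) over the 4 libraries, each centred on its mean. Nearest to MYCN was ERBB2, a receptor tyrosine kinase, at a distance of 0.135, with 516, 76.7, 85.6 and 78.0 CPM at days 0, 2, 3 and 4. LPAR3, a receptor for lysophosphatidic acid, at 0.212, and HAS3, a hyaluronan synthase, at 0.216, came next. Only 35 genes lay within 0.5 of MYCN. Nearest to MYC were SIRT6, BSG and FKBP1A, at 0.0484, 0.0772 and 0.0822, but 1668 genes lay within 0.5 of it. Nearest to MYCL were NMT1, NCKIPSD and EXO1, at 0.0231 to 0.0285, with 4751 genes within 0.5. With 4 points a profile, likeness of the flatter courses picks out little.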

How the data were processed

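RNA of 4 libraries was taken with Trizol and made into libraries with an Illumina TruSeq RNA kit, per the labels' protocols. The submitters' processing notes name BWA, Bowtie, RSEM and hg19, and the design text also names TopHat and Cufflinks. Of versions, roles and strand, the sources used here say nothing. Per the file headers, the deposited values are expected counts, FPKM and a transcript length per Entrez gene. Expected counts were rounded, genes absent from a file were set to 0, and CPM used TMM factors (edgeR 4.0.16, R 4.3.3), which were 1.02, 0.981, 0.995 and 1.002. Deposited FPKM served to compare genes. Between 69.4 and 70.1% of expected counts were whole, with a tolerance of 0. Names came from RefSeq (GRCh38.p14), older symbols included.

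A difference counted at 2-fold on log2(CPM + 1), with a pseudocount of 1 and at least 1 CPM in either library. Folds are CPM ratios with exact conditional binomial 95% intervals, levels have exact Poisson intervals, FPKM shares have delta-method Poisson intervals, and a 0 is read against 3 counts. Named were the 9 members, up to 4 genes of each list with the largest difference at 5 CPM or more, and the 3 nearest profiles of each MYC paralog. NOP56, NOP16, RRP12, MYBBP1A, PUS1, NDRG4, CDKN2C, CEBPA, MYCNOS and GATA1 were named after their values were seen, to complete small counts. The members and the 13 lists were chosen with earlier results of these data known. DESeq2 1.42.0 gave alternative size factors, and the rest ran in Python 3.11.15 (scipy 1.17.1 and pandas 2.3.3).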

Additional observations from a re-analysis of the deposited data

How the results depend on the processing

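No paired analysis was possible because each day is 1 library. Alternatives were pseudocounts of 0.1 and 5 CPM, median-of-ratios size factors, total counts alone, no minimum, a minimum of 5 CPM, and the deposited FPKM. Under these the counts of members higher and lower stayed within 1.5 times their values in the 3 main comparisons, and the target list medians stayed within 0.1. The MYCN share of paralog FPKM stayed within its interval with a mean length over the 4 libraries. A threshold of 4-fold, the single-day comparisons, and counts of the MYC-repressed list over genes at the minimum on the earlier day were added after the data were seen. At 4-fold, 1 member (MXI1) was higher at day 4 against day 0, since MXD4 lay below it. No member's call by the rule differed under these alternatives, the 4-fold threshold aside. Of 315 values of single members 4 left their counting interval, all for MXI1. At day 2 against day 0 its difference was 1.78 with a pseudocount of 5 and 1.82 on FPKM, beside 2.18, and at day 4 against day 0 it was 2.20 and 2.28, beside 2.63. With the minimum met in either library, the MYC-repressed list had 8 of 12, 5 of 13 and 12 of 13 higher at day 2 against day 0, day 4 against day 2 and day 4 against day 0. By the same rule 12.9, 8.18 and 16.1% of all genes were higher, in that order. Of the list, 1, 1 and 2 genes entered only through the later day, where a call was all but set by the minimum. These counts thus add nothing to those over genes at the minimum on the earlier day. Depth limits MXD1 and MXI1 at day 0, and variation between cultures was not measured.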

Other observations

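RSEM gives a gene with several transcripts a length that is their mean weighted by estimated abundance, and the deposited lengths differed between libraries for 5 members. For MYCL, with 3 transcripts in the files, it was 2987, 3072, 3200 and 3322 bases at days 0, 2, 3 and 4, in order of day, while its CPM stayed within counting error. For MAX, with 9 transcripts, it was 1898, 1976, 1743 and 1827 bases. For MXI1, with 3 transcripts, it was 3285 bases at day 0 and 3402 to 3428 bases on the later days. MXD1, with 3, had 5600 bases at day 2 and 5627 bases on the other days. MXD3, with 2 transcripts, had 2662, 2641, 2608 and 2587 bases. MYC, MYCN, MXD4 and MNT have 1 transcript each in the files and a fixed length. These means carry no counting interval, transcript levels were not analysed here, and MYCL rests on 82 to 94 counts a library.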
